A study of Mus musculus with 36 samples.

Results

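The 8 genes described here build the MHC class I presentation pathway of the mouse: the heavy chains H2-K1 and H2-D1, the light chain B2m, the peptide transporter subunits Tap1 and Tap2, the loading factor Tapbp, and the immunoproteasome subunits Psmb8 and Psmb9. They were chosen by name as members of the pathway, and all 8 were found among the 29502 gene symbols of the Drop-seq tables. Their transcripts were read in whole submandibular glands, in normal epithelial, stromal, immune and tumor cells defined by marker genes, and in bulk RNA.

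Class I molecules show peptides from the inside of a cell to cytotoxic T cells. Cytosolic proteins are cut by the proteasome, whose catalytic subunits can be exchanged for inducible ones such as Psmb8 and Psmb9, and the transporter of Tap1 and Tap2 carries the peptides into the endoplasmic reticulum, where tapasin (Tapbp) holds class I molecules until a peptide has bound. Nearly all nucleated cells express the pathway, interferons raise it, and tumor cells that lose it can escape T cells.

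The study followed salivary gland tumors in double-mutant mice, which carry a β-catenin gain-of-function and a Bmpr1a loss-of-function allele recombined by K14-Cre, a Cre under the keratin 14 promoter, which is active in basal epithelial cells. Control mice, labelled wildtype, came from crosses of K14-Cre with the Cre-inducible R26-EYFP reporter that the double mutants also carry, and all mice were C57BL/6. Drop-seq, which counts the 3′ ends of transcripts by unique molecular identifiers (UMIs) in single cells, was run on live cells sorted from 1 gland per library: 6 and 7 glands of control and double-mutant mice, respectively, at postnatal day 40 (P40), and again 6 and 7 at P90, with both sexes labelled in every group. Bulk mRNA came from a pair of female glands, 1 of a control mouse at P70 and 1 of a double mutant at P100.

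Total UMIs per gland ranged from 650301 to 6994504 in the 23346 cells kept, and only 14 barcodes occurred in more than 1 library. Control glands at P90 and at P40 were run in different batches, so that among controls a difference by stage cannot be told apart from one by batch, and 5 of 8 batches held both genotypes. In 2 double-mutant libraries of the same batch, 1 at P40 and 1 at P90, sex-linked transcripts went against the sex label. The P40 library, labelled male, had 591 UMIs of Xist and 1 of Y-linked genes, and the P90 library, labelled female, had 0 and 194. Whether these 2 were exchanged, which would change their stage labels as well, was not tested. Another double-mutant library, at P90, had the highest share of ribosomal protein transcripts (8.71%, the next 7.94%). For the 8 genes, whole-gland results by genotype are also given without these libraries. Those at each stage and in normal epithelial cells are also given without the sex-discordant ones. Counts of glands by cell population and results for ductal-like cells alone include all of them, and results for regulators leave out at most 1 gland at a time. Bmpr1a had between 9.50 and 26.2 CPM (UMIs scaled to the same total in every gland) in control and between 8.91 and 46.6 CPM in double-mutant glands. Counts of 3′ ends in mixed cells do not tell a recombined from an intact allele, so that they do not check the labels.

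Cells were clustered without the class I genes, the other H2 genes and the pathway genes named below. Of the 23346 cells, 11759 fell into normal epithelial clusters (acinar-like, ductal-like, luminal Dcpp1+-like, basal-like and myoepithelial-like), 1417 into stromal clusters (endothelial-like and fibroblast-like), 3222 into immune clusters (myeloid-like, T/NK-like and B/plasma-like) and 1520 into tumor clusters (CSC-like, for cancer stem cell, basal tumor-like and luminal Clu+-like), while 5428 cells stayed unnamed. Of the tumor cells, 1465 came from double-mutant and 55 from control glands. The makeup of the glands moved with genotype. Immune cells were between 1.09% and 14.8% (median 5.98%) of the cells of a control gland and between 7.74% and 38.6% (median 15.5%) of those of a double-mutant gland, and normal epithelial cells had medians of 66.8% and 33.0%.

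The heavy chain genes H2-K1 and H2-D1 both lie on chromosome 17 and are so alike that 3′ reads of one could be counted for the other, so that their split is uncertain. Their likeness reaches into the promoters, and the stretches below are shown for it: 78 of 80 bases (97.5%) were identical in the RefSeq mouse genome (GRCm38.p6). Capitals mark a match to an NF-κB type motif, GGG and TTCCC with 2 bases of any kind between them, that 1.53% of 32851 promoter windows held on either strand. The H2-K1 stretch lies at chr17:34000399-34000478 (minus strand) and the H2-D1 stretch at chr17:35262903-35262982 (plus strand), both upstream of the transcription start.
H2-K1: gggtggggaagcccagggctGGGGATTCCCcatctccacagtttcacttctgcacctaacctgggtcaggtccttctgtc
H2-D1: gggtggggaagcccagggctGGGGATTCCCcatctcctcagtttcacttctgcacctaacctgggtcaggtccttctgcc

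The light chain gene B2m lies on chromosome 2. Its upstream stretch at chr2:122147528-122147607 (plus strand) is shown for a match to a motif of the interferon-stimulated response element type, G, any base, AA, any 2 bases and GAAA, in capitals, which 6.82% of the windows held.
B2m: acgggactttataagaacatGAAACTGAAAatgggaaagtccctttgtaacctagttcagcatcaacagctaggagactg

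Tap1 and Psmb9 are neighbours that start back to back on chromosome 17, so that the same 225 bases at chr17:34187331-34187555, given on the plus strand, lie upstream of both. They are shown because both genes are compared below. None of these 2 motifs and of TTCNNNGAA, a motif of the gamma-activated site type held by 7.02% of the windows, was found in the windows of Tap1, Psmb9 or Tapbp, while the Psmb8 window held 1 match to TTCNNNGAA.
Tap1 and Psmb9: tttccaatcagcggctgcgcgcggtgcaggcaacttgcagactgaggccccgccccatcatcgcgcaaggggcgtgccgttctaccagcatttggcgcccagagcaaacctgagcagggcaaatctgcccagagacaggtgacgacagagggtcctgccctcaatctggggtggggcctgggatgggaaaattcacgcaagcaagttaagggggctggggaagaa

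To ask how the pathway differed between genotypes in the gland as a whole, UMIs were summed over all cells of a gland and tested by the quasi-likelihood method of edgeR, with sex and stage as covariates. Of the 8 genes, 6 were higher in double-mutant than in control glands, led by Tap1 with a 2.51-fold difference, while B2m and H2-D1 did not pass the test (adjusted p below 0.05 over all 10488 genes). Of all genes tested, 14.4% were called higher and 7.56% lower, and their median log2 fold change was 0.019. Values per gland are given as CPM after scaling by the trimmed mean of M-values (TMM), which sets most genes to like levels in all glands. Without TMM the median gene was higher in double-mutant glands by 0.68 on the log2 scale, so that differences are relative to that shift.

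Among the heavy chains, H2-K1 ranged from 220.5 to 573 scaled CPM (median 339.6) in control against 275 to 1050 (median 519.9) in double-mutant glands, and its log2 fold change was 0.63 (standard error, SE, 0.21, adjusted p = 0.0323). H2-D1 ranged from 316 to 1044 (median 411) and from 299 to 843 (median 468), with a log2 fold change of 0.10 (SE 0.18, adjusted p = 0.722). H2-K1 thus lay above all controls in 5 of 14 double-mutant glands and H2-D1 in 0 of 14. Per gland, the UMIs of H2-K1 divided by those of H2-D1 gave 1.86 in double-mutant P40 replicate 5, 2.50 in double-mutant P90 replicate 5 (a sex-discordant library) and 1.99 in double-mutant P90 replicate 6. The ratio lay between 0.659 and 1.05 in the other 11 double-mutant glands and between 0.549 and 1.07 in the 12 controls. The light chain B2m ranged from 253 to 1126 (median 518) in control against 411 to 1761 (median 718) in double-mutant glands, with a log2 fold change of 0.64 (SE 0.26, adjusted p = 0.0702), and 3 of 14 double-mutant glands lay above all controls.

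The transporter subunit Tap1 ranged from 3.30 to 15.2 scaled CPM (median 7.03) in control against 8.13 to 47.1 (median 17.9) in double-mutant glands, with a log2 fold change of 1.33 (SE 0.28, adjusted p = 0.00219). All 14 double-mutant glands lay above the control median and 8 of them above every control gland. Its partner Tap2 ranged from 6.599 to 22.6 (median 12.9) and from 10.3 to 58.7 (median 19.7), with a log2 fold change of 0.74 (SE 0.25, adjusted p = 0.0334). Tapbp ranged from 23.4 to 51.8 (median 38.1) and from 42.6 to 131 (median 55.7), with a log2 fold change of 0.80 (SE 0.19, adjusted p = 0.0046). For Tapbp too, all 14 double-mutant glands exceeded the control median and 8 exceeded every control gland.

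The immunoproteasome subunit Psmb8 ranged from 6.03 to 38.2 scaled CPM (median 22.6) in control against 24.8 to 81.7 (median 34.6) in double-mutant glands, with a log2 fold change of 0.76 (SE 0.23, adjusted p = 0.0216). Psmb9 ranged from 2.72 to 13.6 (median 11.04) and from 7.94 to 28.9 (median 14.2), with a log2 fold change of 0.70 (SE 0.24, adjusted p = 0.0344). The genotypes overlapped for all 8 genes, and in 0.105% of the genes tested did every double-mutant gland exceed every control gland (0.82% at P40 and 1.48% at P90).

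**Figure D1:**
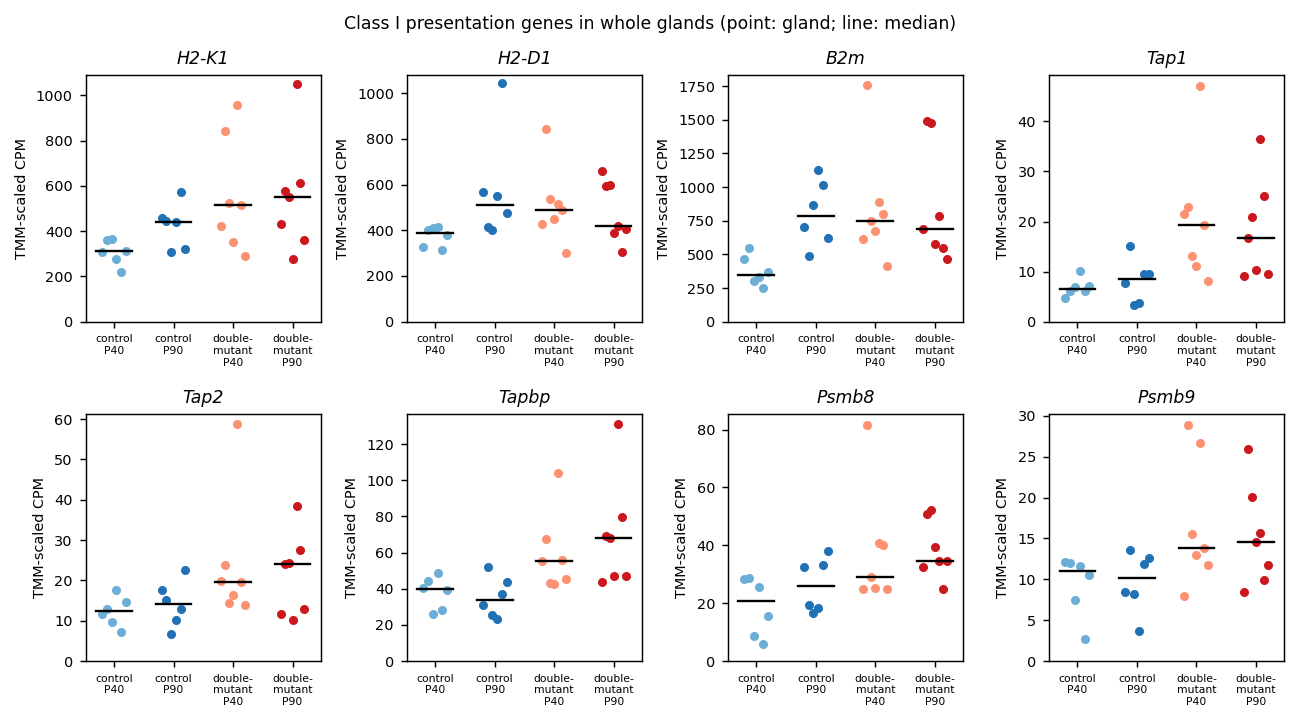
TMM-scaled CPM (vertical axis, linear, 1 panel per gene) of the 8 genes in the summed cells of each of 26 glands (points), by genotype and stage, with the median of each group as a line. All double-mutant points of Tap1, Tapbp and Psmb8 lie above the median of the 12 control glands, whereas those of H2-D1 overlap with the controls, with none above the highest.

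Tap1, Tapbp and Psmb8 passed in all 26 fits that left out 1 gland each, H2-K1 and Tap2 in 18 and Psmb9 in 17, and 3 genes passed without double-mutant P40 replicate 2, double-mutant P40 replicate 5 or control P40 replicate 5. Beside those 3 glands, H2-K1 lost its call without control P40 replicate 4 or 6, control P90 replicate 3 or 6 or double-mutant P90 replicate 5 (adjusted p up to 0.0695). Tap2 lost it without control P40 replicate 3, control P90 replicate 3 or 4 or double-mutant P90 replicate 5 or 6 (up to 0.0715), and Psmb9 without control P40 replicate 3 or 6, control P90 replicate 1 or 4 or double-mutant P90 replicate 2 or 3 (up to 0.0701). With batch as a covariate none of the 8 passed, and the log2 fold change of Tap1 was then 1.302 (adjusted p = 0.0646) and that of Tapbp 0.68 (adjusted p = 0.137). Within the 5 batches that held both genotypes, Tap1 and Tapbp were higher in double-mutant glands in 5 of 5, H2-D1 in 3 and the other genes in 4. Without the sex-discordant libraries 4 genes passed (Tap1, Tapbp, Psmb8 and Psmb9), and without the library with the highest ribosomal share 6 did.

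Other genes of the pathway were tested in the same fit. Of 14 regulators tested, 6 were higher in double-mutant glands and 0 were lower, among them the interferon signal transducers Stat2 (log2 fold change 0.82), Irf9 (0.64) and Irf1 (0.96), and both chains of the interferon-γ receptor, Ifngr1 (0.84) and Ifngr2 (0.74). Of 7 other heavy chain genes tested 1 was higher, H2-Q4 (0.93, adjusted p = 0.0266), a share near the 14.4% of all genes called higher, and of 3 genes of the immunoproteasome and its activator 1 was higher, the inducible subunit Psmb10 (0.92, adjusted p = 0.0111). Of the 3 constitutive subunits that the inducible ones replace, Psmb6 was lower (log2 fold change −0.50, adjusted p = 0.0499), though without TMM its difference was 0.041 and it passed in only 7 of 26 fits with 1 gland left out (adjusted p up to 0.0962), and 0 of 5 loading complex, chaperone and trimming genes passed. Of these regulators, Ifngr1 passed in 13 of 26 fits with 1 gland left out, and Stat2, Irf9, Irf1 and Ifngr2 passed in all 26. H2-Q4 passed in 24.

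These sums mix cell types, so that fewer cells of a type and less RNA per cell cannot be told apart in them. The sources of the transcripts differed by genotype. Normal epithelial cells held a median of 56.6% of the B2m UMIs of a control gland and 23.1% of those of a double-mutant gland, and immune cells held 20.4% and 42.9%. For Tap1 the normal epithelial share was 51.3% in control and 33.9% in double-mutant glands, where tumor cells held a median of 11.8%. A list of 10 immune transcripts (among them Ptprc, Tyrobp, Lyz2 and C1qa) summed to between 52.0 and 625.5 scaled CPM (median 201) in control and between 354 and 1841 (median 1035) in double-mutant glands, and its part in the whole-gland values was not tested.

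To compare the same kind of cell, UMIs were summed over normal epithelial cells alone. There Tap1 and Tapbp were higher in double-mutant glands, 2.71-fold and 1.79-fold, and the other 6 genes did not pass the test. Of the 7509 genes tested in these cells, 1.16% were called higher and 0.253% lower. DESeq2 called 4 members, with 2.72% of all genes higher, and edgeR without TMM 5, with 3.1%.

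In normal epithelial cells Tap1 ranged from 2.0003 to 12.04 scaled CPM (median 5.45) in the 12 control glands and from 8.07 to 33.3 (median 19.1) in the 14 double-mutant glands. Its log2 fold change was 1.44 (SE 0.26, adjusted p = 0.00191), on between 2 and 31 UMIs a gland. All 14 double-mutant glands lay above the control median and 10 above every control gland, and at P40 the 7 double-mutant glands did not overlap with the 6 controls. B2m did not overlap at P40 either, and in 0.293% of the 7509 genes tested did every double-mutant gland exceed every control gland there. Tapbp ranged from 21.3 to 47.3 (median 32.7) in control against 32.6 to 139.8 (median 57.3) in double-mutant glands, with a log2 fold change of 0.84 (SE 0.19, adjusted p = 0.016), and 10 of 14 double-mutant glands again exceeded every control.

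The heavy chain H2-K1 ranged from 216 to 557 scaled CPM (median 311) in control against 175 to 1393 (median 499.7) in double-mutant glands, with a log2 fold change of 0.80 (SE 0.23, adjusted p = 0.0803). Its spread in the double-mutant glands reached below the lowest control. Psmb8, at medians of 15.7 and 27.6, had a log2 fold change of 0.79 (SE 0.25, adjusted p = 0.109), and Tap2, at 10.3 and 15.8, one of 0.62 (SE 0.24, adjusted p = 0.195). B2m, at 353 and 521, had a log2 fold change of 0.59 (SE 0.27, adjusted p = 0.269). These 3 differences had the sign of that of Tap1 but did not pass. Psmb9, which shares its upstream bases with Tap1, had medians of 6.94 and 7.53 and a log2 fold change of 0.22 (SE 0.29, adjusted p = 0.76), on between 0 and 26 UMIs a gland. H2-D1 had medians of 382 and 417 and a log2 fold change of 0.15 (SE 0.19, adjusted p = 0.741).

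**Figure D2:**
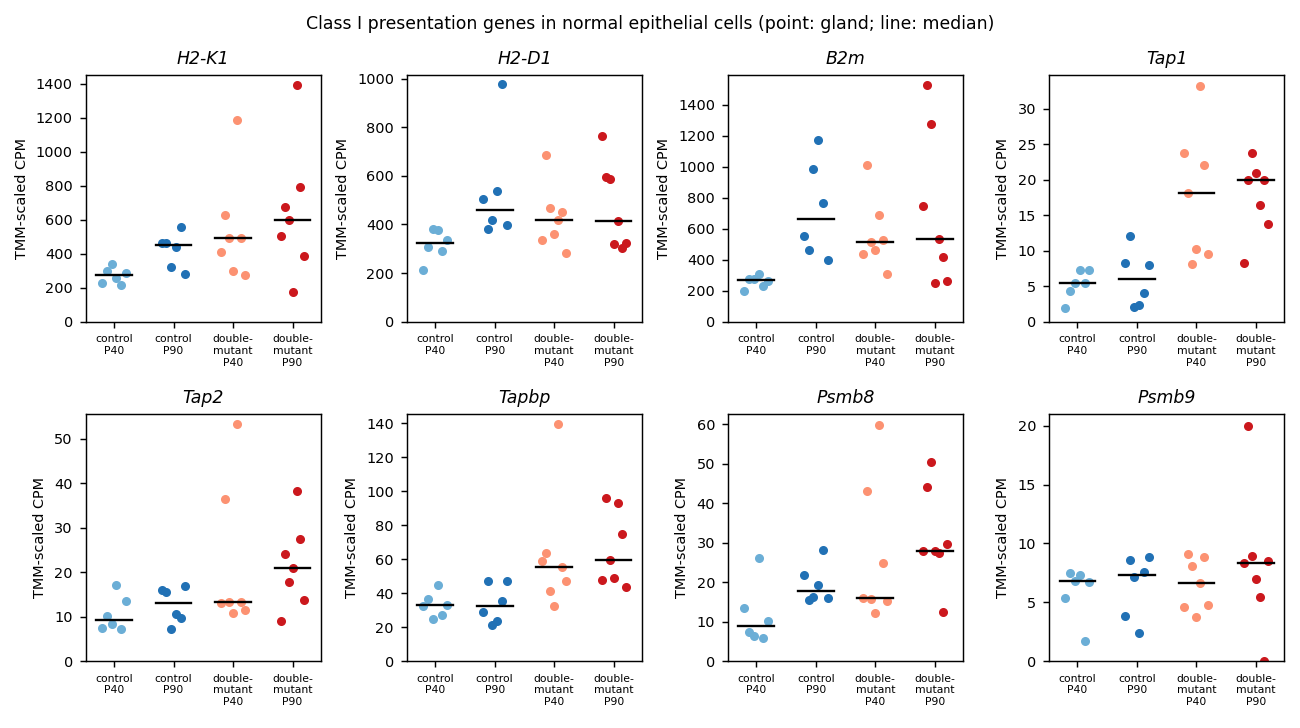
TMM-scaled CPM (vertical axis, linear, 1 panel per gene) of the 8 genes in the summed normal epithelial cells of each of 26 glands (points), by genotype and stage, with group medians as lines. For Tap1 and Tapbp 10 of 14 double-mutant glands lie above every control, and for Psmb9 4 of 14 do.

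Tap1 and Tapbp passed in each of the 26 fits that left out 1 gland. With batch as a covariate Tap1 passed (log2 fold change 1.81, adjusted p = 0.0423) and Tapbp did not (0.92, adjusted p = 0.300). Both were higher in double-mutant glands in 5 of 5 batches, again with stages mixed within some. Without the sex-discordant libraries their log2 fold changes were 1.29 and 0.78, and both passed. The 10 immune transcripts summed to between 8.001 and 51.1 scaled CPM (median 18.6) in the normal epithelial cells of control glands and between 6.05 and 120.2 (median 29.4) in those of double-mutant glands, with Cd3e at 0 in 3 of the 4 groups. In normal epithelial cells with no UMI of these 10 genes the log2 fold changes were as large, 1.51 for Tap1 and 0.85 for Tapbp, and both passed.

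The makeup of the normal epithelium moved with genotype as well, since acinar-like cells, the saliva-secreting cells, gave a median of 54.0% of its UMIs in controls against 37.0% in double mutants. Within ductal-like cells alone, an alternative chosen after seeing the data, Tap1 had a log2 fold change of 1.71 (adjusted p = 0.00376) and Tapbp one of 0.95 (adjusted p = 0.0094). The median level of Tap1 in ductal-like cells was 8.70 CPM over 12 control and 36.6 CPM over 14 double-mutant glands, and that of Tapbp was 68.9 and 134 CPM. Tap1 had 46 UMIs in all control and 112 in all double-mutant ductal-like cells, and was at 0 in 2 control glands and 1 double-mutant gland. Ductal-like cells were themselves a mix that moved with genotype. Of 3188 control cells the Egf+-like clusters held 861 and 704 and the progenitor-like cluster 1111. Of 2216 double-mutant cells they held 388, 61 and 1296. The part of this mix was not tested. Within acinar-like cells alone, likewise chosen after seeing the data, Tapbp had a log2 fold change of 0.24 (adjusted p = 0.828), and Tap1, with 37 UMIs in all control and 25 in all double-mutant acinar-like cells, was too rare to be tested.

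Regulators of class I genes were higher as well in normal epithelial cells. Of 11 tested, 4 were higher and 0 were lower, among them Irf1, which binds interferon response elements (log2 fold change 1.39, standard error 0.22, adjusted p = 0.000286), and the interferon signal transducers Stat2 (0.98, adjusted p = 0.00461) and Irf9 (0.87, adjusted p = 0.00429). These 3 passed in all 26 fits with 1 gland left out. None of 5 other heavy chain genes, 5 loading complex, chaperone and trimming genes, 3 immunoproteasome and activator genes and 3 constitutive subunits passed, and Psmb10 had a log2 fold change of 0.67 (adjusted p = 0.194).

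In stromal cells none of the 6 members frequent enough to be tested passed (10 control and 14 double-mutant glands with at least 10 such cells), and 0 had an unadjusted p under 0.05. Their log2 differences lay between −0.36 and 0.30, with standard errors between 0.21 and 0.40, where edgeR called 2.61% of 1226 genes higher and 1.14% lower. B2m, for example, ranged from 2500 to 7348 scaled CPM (median 4322) in control against 2603 to 5575 (median 3630) in double-mutant glands. Within 4 batches that could be compared, again with stages mixed within some, it was higher in double-mutant glands in 1. By stage, double-mutant glands above the control median of that stage were 6 of 7 for H2-K1 at P40 and 0 of 7 at P90. They were 5 and 0 for H2-D1, 4 and 0 for Tap2, 3 and 0 for B2m and 4 and 1 for Psmb8. For Tapbp they were 3 and 5. Control P90 had 4 such glands, the share over all genes was not counted, and genotype by stage was not tested in stromal cells. The 10 immune transcripts had medians of 468 and 206 scaled CPM in these cells, and their part in the values was not tested.

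In immune cells none of the 6 members tested passed either (11 control and 14 double-mutant glands), and 0 had an unadjusted p under 0.05. Their log2 differences lay between −0.16 and 0.43, with standard errors between 0.18 and 0.27, while edgeR called 4.49% of 2026 genes higher and 2.42% lower. DESeq2 called 0 members in both stromal and immune cells, with 5.14% and 6.96% of all genes higher, and without TMM 1 member was called in immune cells, with 23.1%. B2m ranged from 2940 to 7093 scaled CPM (median 4516) in control against 2988 to 6612 (median 5276) in double-mutant glands, and H2-K1 from 797 to 2387 (median 1793) and from 1315 to 3301 (median 1837), so that the genotypes overlapped for both. H2-D1 lay above the control median of its stage in 5 of 7 double-mutant glands at P40 and 0 of 7 at P90. The counts were 5 and 2 for H2-K1, 5 and 1 for Psmb9, 6 and 3 for B2m and Psmb8, and 6 and 5 for Tapbp. The share over all genes was not counted, and genotype by stage was not tested in immune cells.

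**Figure D3:**
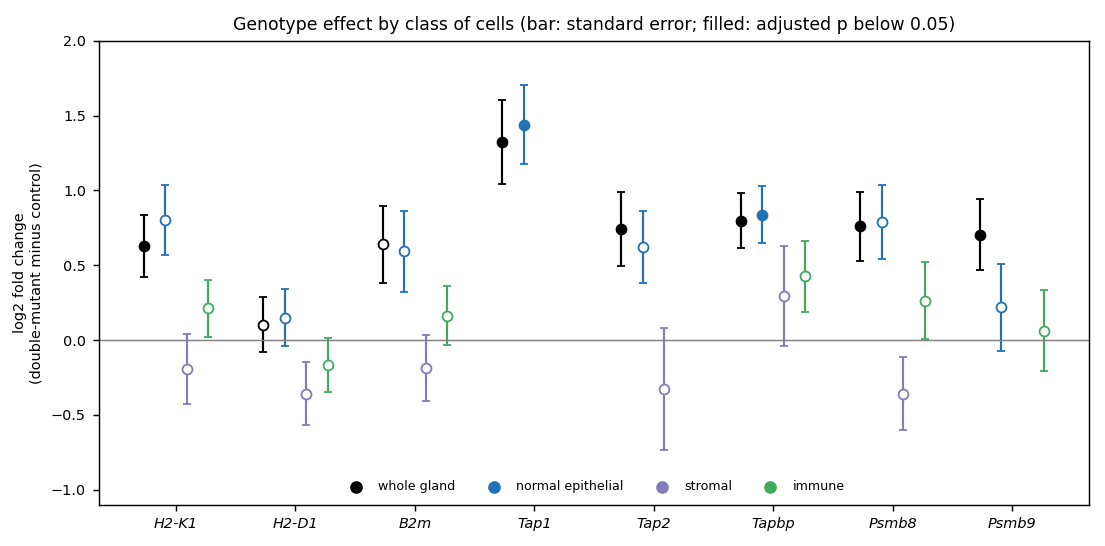
Log2 fold change between double-mutant and control glands (vertical axis) of each gene in whole glands, normal epithelial, stromal and immune cells (points), with standard errors as bars and filled points at an adjusted p below 0.05. Filled points stand for 6 genes in whole glands and for Tap1 and Tapbp in normal epithelial cells, and all stromal and immune points are open. A missing point is a gene too rare to be tested.

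An effect called in one class and not in another need not differ between them, so the difference of the genotype effects was tested within glands. It passed for 0 of the 8 genes in the 3 pairs of classes. Between immune and normal epithelial cells, where 0.546% of 6045 genes differed, Tap1 had a difference of effects of −0.93 on the log2 scale (SE 0.44, adjusted p = 0.403). Between stromal and normal epithelial cells, where 0.31% of 5812 genes differed, Psmb8 had −1.09 (SE 0.35, adjusted p = 0.273) and H2-K1 −0.70 (SE 0.23, adjusted p = 0.279), and 4 of the 8 genes had an unadjusted p under 0.05. Between immune and stromal cells 0.122% of 4108 genes differed. Among the regulators Irf1 passed, with a smaller effect in immune than in normal epithelial cells (−1.15, adjusted p = 0.0188) and in stromal than in normal epithelial cells (−1.52, adjusted p = 0.00585).

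The early and the late stage were compared in whole glands, with sex as a covariate. At P40 Tap1 alone passed the test for genotype, with a log2 fold change of 1.496 (SE 0.39, adjusted p = 0.0489), where 1.29% of 11420 genes were called higher and 0.0701% lower, and at P90 Tapbp alone did, at 0.95 (SE 0.26, adjusted p = 0.0281), where 5.44% were called higher and 2.64% lower. DESeq2 called 4 members higher at P40, with 5.5% of all genes, and 2 at P90, with 9.47%. Without TMM 8 members were called at P40, with 19.6% of all genes, and 2 at P90, with 10.2%. Tap1 at P40 kept its call in 10 of 26 fits with 1 gland left out and Tapbp at P90 in 22 of 26, and without the sex-discordant libraries neither passed (adjusted p = 0.0558 and 0.092). The log2 differences of the other 7 genes lay between 0.43 (H2-D1) and 1.15 (B2m) at P40 and, beside Tapbp, between −0.25 (H2-D1) and 1.10 (Tap1) at P90.

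B2m was the member that differed most between the stages in control glands. In control glands it ranged from 253 to 545 scaled CPM (median 348) at P40 and from 492 to 1126 (median 784) at P90. In double-mutant glands the ranges were 411 to 1761 (median 746) at P40 and 464 to 1492 (median 689) at P90. In control glands 1 gland of each stage lay within the range of the other, and the log2 difference was 1.06 (SE 0.34, adjusted p = 0.0662), where 4.48% of 11420 genes were called higher at P90 and 0.552% lower, none of the 8 among them. DESeq2 called 1 of the 8 higher, with 6.74% of all genes. The makeup of control glands differed between the stages as well. Immune cells were 1.58% to 10.6% (median 2.77%) of the cells at P40 and 1.09% to 14.8% (median 10.98%) at P90. Stromal cells had medians of 3.05% and 2.56%. Ductal-like cells gave 8.82% to 35.4% (median 11.8%) of normal epithelial UMIs at P40 and 24.3% to 50.4% (median 42.6%) at P90. The part of this makeup in the stage difference of B2m was not tested. The genotype effect on B2m differed between the stages by −1.05 on the log2 scale and did not pass the test (SE 0.46, adjusted p = 0.852), though its unadjusted p was under 0.05, where 0.00876% of genes passed. In double-mutant glands the 8 genes had log2 differences between −0.16 and 0.22 between the stages, and edgeR called 0% of genes (0 members at an unadjusted p under 0.05), DESeq2 28 genes (0.21% of all genes higher) and 0 members. Without the sex-discordant libraries, whose stage labels are uncertain too, edgeR again called 0 genes.

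By the median over glands, among the named cell populations B2m, the heavy chains and both immunoproteasome genes were highest in immune cells. Tap1 and Tap2 were highest in endothelial-like cells and Tapbp in luminal Clu+-like tumor cells. Acinar-like or luminal Dcpp1+-like cells came last for 5 of the 8 genes. For Tap1, Tap2 and Psmb9 myoepithelial-like cells had a median of 0, which CSC-like cells shared for Tap1 and Psmb9. Fibroblast-like cells of double-mutant glands had a median of 0 for Psmb9 too. Tap1 had 1 UMI in all control and 5 in all double-mutant myoepithelial-like cells, so that this last place rests on few counts. With all cells of a population pooled, acinar-like cells were lowest for Tap1, Tap2 and Psmb9. Over 13 named populations B2m was highest in myeloid-like cells (median over glands 4542 CPM), followed by T/NK-like (3691), endothelial-like (3127), B/plasma-like (2939) and fibroblast-like cells (2647), whose ranges over glands all overlapped. The order of the leading populations differed by genotype. In control glands the median was 3969 CPM in endothelial-like (8 glands), 3719 in T/NK-like (6) and 3583 in myeloid-like cells (10), and in double-mutant glands it was 5144 in myeloid-like (14), 3628 in T/NK-like (9) and 2938 in endothelial-like cells (14). Over all glands, basal-like (1689), luminal Clu+-like (1556) and basal tumor-like cells (1537) followed, then ductal-like (1081), CSC-like (928), myoepithelial-like (769) and luminal Dcpp1+-like cells (225). Acinar-like cells came last with 63.3 CPM, a range from 13.2 to 319 that lay below the whole range of the myeloid-like cells.

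Some steps of this order were read gland by gland. Acinar-like cells had less B2m, H2-K1, H2-D1, Tapbp and Psmb8 than ductal-like cells in 26 of 26 glands, as did 10.6% of 13154 genes with at least 20 UMIs in these cells, and the median gene was lower by a log2 difference of −0.72 on plain CPM. Myeloid-like cells had more B2m and H2-D1 than ductal-like cells in 24 of 24, as did 2.25% of 13183 such genes. T/NK-like cells led for both heavy chains, with medians of 2347 CPM for H2-K1 and 2367 for H2-D1, and for the immunoproteasome subunits Psmb8 (299.8) and Psmb9 (130.4), while endothelial-like cells led for Tap1 (59.4) and Tap2 (86.2) and luminal Clu+-like tumor cells for Tapbp (212). Their neighbours in the order overlapped with them in all 8 genes, and 3 of these leads changed with the measure. With all cells of a population pooled, Tap1 was highest in basal tumor-like cells (72.2 CPM, myeloid-like 62.1). By the share of cells with a UMI after each cell was thinned to the same number of UMIs, Tap1 was also highest there (4.12%, endothelial-like 3.24%), while Psmb9 (7.51%, T/NK-like 5.13%) and Tapbp (11.9%, luminal Clu+-like 11.7%) were highest in endothelial-like cells. B/plasma-like cells were rich in B2m but had 355 CPM of H2-D1, the lowest median of the immune and stromal populations.

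**Figure D4:**
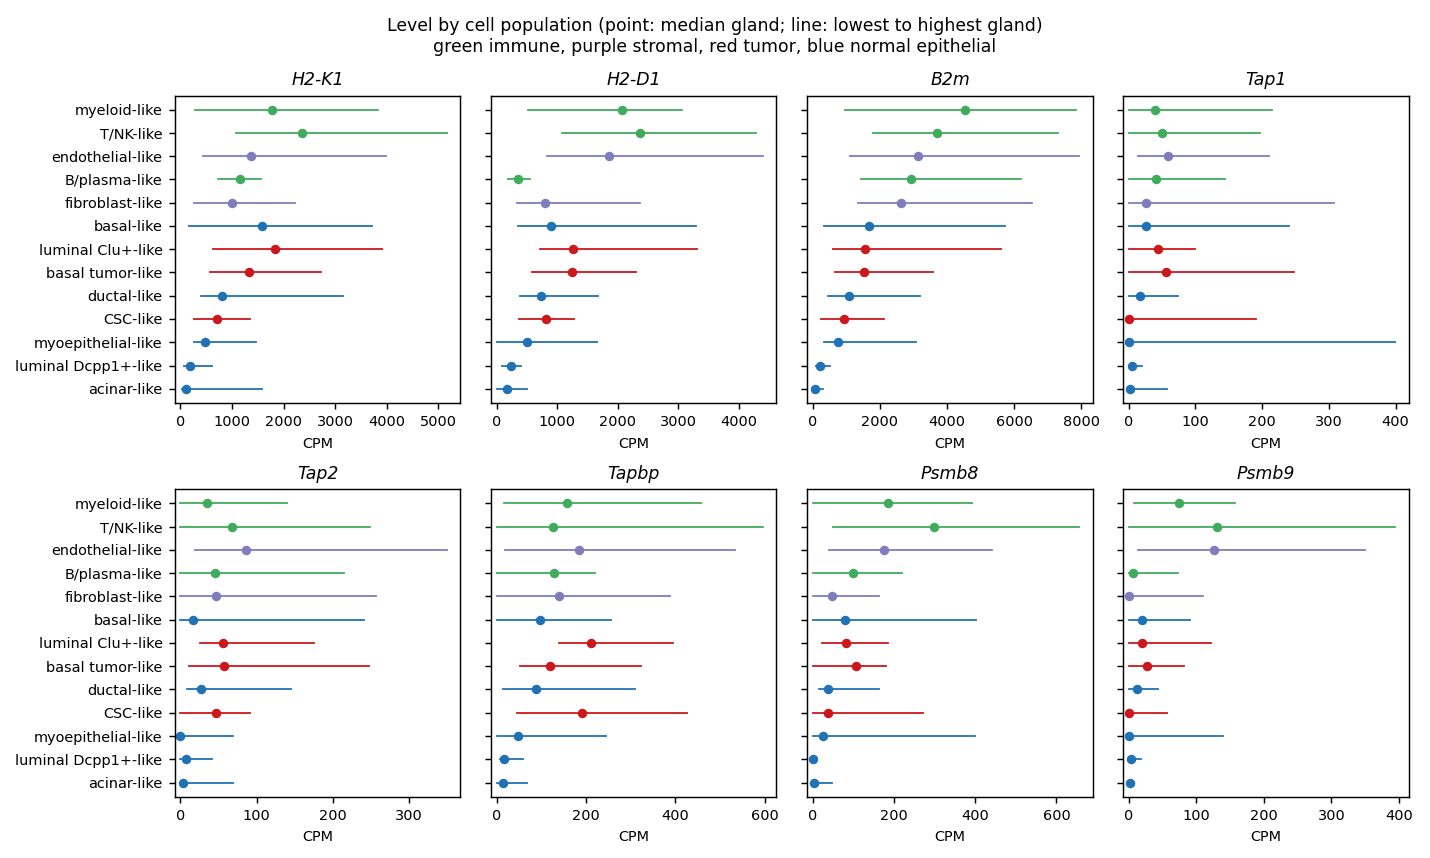
CPM (horizontal axis, linear, 1 panel per gene) in 13 named cell populations, as the median over glands with at least 10 cells of the population (points) and the lowest to highest gland (lines), colored by class. For B2m the medians run from 63.3 in acinar-like to 4542 in myeloid-like cells, and acinar-like and luminal Dcpp1+-like cells lie near the left edge for all 8 genes.

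To see whether tumor cells differed from the normal epithelium beside them, both were compared in the 12 double-mutant glands with at least 10 cells of each. On the plain CPM scale the medians of all 8 genes were higher in tumor cells. B2m ranged from 555 to 3727 CPM (median 1387) in tumor and from 250.3 to 2276 (median 793) in normal epithelial cells and was higher in 11 of 12 glands. H2-D1 (medians 1060 and 613) was higher in tumor cells in 12, H2-K1 (1437 and 719) in 10, Tapbp (192 and 78.0) in 11 and Tap1 (44.8 and 21.9) in 9. Most genes shared this shift. Without TMM the median gene was higher in tumor cells by 1.19 on the log2 scale and 79.7% of 4821 genes were called higher, with all 7 members tested among them.

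Relative to that shift, 0 of the 7 members tested passed, and 0 had an unadjusted p under 0.05. With TMM and the gland as a block their log2 differences lay between −0.013 (B2m) and 0.30 (Psmb8), with standard errors from 0.12 to 0.30, while edgeR called 14.3% of all genes higher and 15.5% lower. DESeq2 called 0 members and 15.2% of all genes higher. Of the pathway lists, Ifngr1 was higher in tumor cells (0.86) and Irf1 (−0.42) and Pdia3, a chaperone of the loading complex (−0.36), were lower. The result depended on how tumor cells were picked. With classes set from marker UMIs per cell in place of clusters, H2-K1 (−0.78 on the log2 scale) and H2-D1 were lower in tumor cells and passed, where 11.7% of 7271 genes were called lower. The normal side was a mix, with acinar-like cells at a median of 37.0% of its UMIs over all 14 double-mutant glands. Basal-like cells were set against basal tumor-like cells in 8 glands, on plain CPM with no test. In basal-like cells H2-K1 (medians 1653 and 1314), B2m (1559 and 1468) and Psmb9 were higher in 5 of 8 glands and Psmb8 in 6. Tap2 and Tapbp were lower there in 7 of 8 glands, H2-D1 in 6 and Tap1 in 5. The share of all genes with such counts was not taken. Over all 235 double-mutant basal-like cells Tap1 and Tap2 had 12 UMIs each, and were at 0 in 3 and 4 of 9 glands. Tapbp had 20 UMIs in these cells, Psmb8 26 and Psmb9 9, so that the counts of glands for these 5 genes rest on few UMIs.

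Within the tumor the populations differed in level. CSC-like cells, whose leading genes include the Wnt feedback inhibitors Notum and Nkd1, had less B2m than basal tumor-like cells in 9 of 9 glands with at least 10 cells of both (medians 928 and 1628 CPM). H2-K1 (704 and 1616), H2-D1 (821 and 1245), Tap1 (0 and 60.3) and Psmb8 (38.2 and 124) were lower in CSC-like cells in 8 of 9 glands. Tapbp went the other way and was higher in CSC-like cells in 7 of 9 glands (191 and 121 CPM). Against luminal Clu+-like cells the CSC-like cells had less B2m and H2-K1 in 8 of 9 glands. They also had less Tapbp than luminal Clu+-like cells in 6 of 9 (191 and 218 CPM), a count whose share over all genes was not taken. Among 6227 genes with at least 20 UMIs in the CSC-like and basal tumor-like cells, 2.63% were lower in CSC-like cells in 9 of 9 glands, 7.16% in at least 8 and 11.3% higher in at least 7, and the median gene differed by −0.082 on the log2 scale. Against luminal Clu+-like cells 5.08% of 5274 such genes were lower in at least 8 of 9 glands. These are counts of glands on plain CPM with no test. Tap1 had 8 UMIs in all 331 CSC-like cells, among them cells outside the 9 glands. In the CSC-like cells of any of the 9 glands Tap1 had at most 3 UMIs, Psmb8 at most 5 and Tapbp between 1 and 15.

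**Figure D5:**
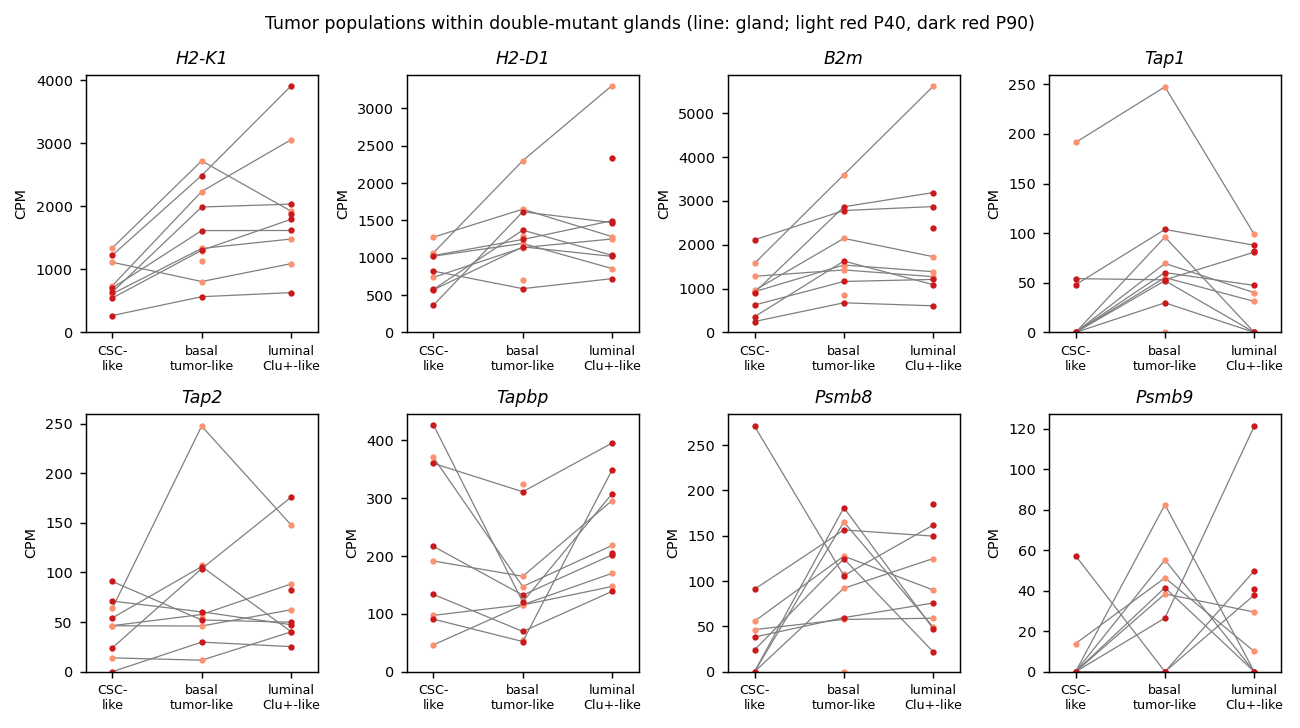
CPM (vertical axis, linear, 1 panel per gene) in CSC-like, basal tumor-like and luminal Clu+-like cells of double-mutant glands with at least 10 cells of a population (points, light for P40 and dark for P90), with the values of 1 gland joined by a line. B2m is lower in CSC-like than in basal tumor-like cells on all 9 lines, and Tapbp is higher on 7 of 9.

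Tumor cells were also compared between stages, in 6 double-mutant glands at P40 and 6 at P90. Of the 4 members frequent enough to be tested 0 passed, and 0 had an unadjusted p under 0.05, with log2 differences between −0.12 (H2-D1) and 0.46 (Tapbp) and standard errors between 0.29 and 0.43. Of all 1372 genes edgeR and DESeq2 called 0%. Without the sex-discordant libraries, whose stage labels are uncertain too, edgeR again called 0 genes. B2m ranged from 573 to 3727 CPM (median 1387) at P40 and from 555 to 2745 (median 1780) at P90, so that the stages overlapped.

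Bulk RNA of 1 gland per genotype gave no replicate error, and the glands differed in stage. Per transcript length, the control library held most B2m (99.2 TPM, counts scaled by transcript length and library total), H2-D1 (80.7) and H2-K1 (53.0), then Tapbp (6.85), Psmb8 (2.13), Tap1 (1.65), Tap2 (1.63) and Psmb9 (1.35). The double-mutant library had 1.40 times the CPM of the control library for Psmb8 (9.27 against 6.63, 95% interval of the ratio for counting error only, 1.18 to 1.66), 1.24 times for H2-K1 (195.8 against 157, interval 1.199 to 1.29) and 1.21 times for B2m (118 against 97.2, interval 1.16 to 1.27). The interval held 1 for Tap1 (ratio 1.123), Psmb9 (1.02) and Tap2 (0.990). It lay below 1 for Tapbp (0.899, interval 0.816 to 0.990) and H2-D1 (0.885, interval 0.857 to 0.913). These ratios are of plain CPM and not relative to the median gene.

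Of the 8 genes 0 reached a 2-fold difference in bulk RNA, as 6.16% of 15265 genes did in the direction of the double mutant. The median gene had a log2 ratio of −0.31, and the median of the 8 genes was 0.097. Relative to the median gene all 8 were higher in the double-mutant library, from 0.13 (H2-D1) and 0.16 (Tapbp) to 0.79 (Psmb8) on the log2 scale. Of the 10 immune transcripts 2 were at least 2-fold higher in the double-mutant library, their median log2 ratio was 0.73, and their part in the bulk values was not tested.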

How the data were processed

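Drop-seq reads were processed by the authors with Drop-seq tools and GENCODE vM7 (mm10, Cre and EYFP added), and the deposited values are UMI counts, not normalized, of each gene in each barcode above the knee. The deposited bulk tables hold read counts per gene from STAR and featureCounts 1.6.0, per the file headers and the methods. Barcodes with at least 100 genes and under 15% mitochondrial UMIs were kept (23346 of 26987). The sort had a size gate against doublets, which acted before the droplets were made, and no doublets were called in the libraries. Cells were clustered (scanpy 1.11.5, 2000 variable genes, 30 components, 20 neighbors, resolution 1.0, 32 clusters) with 79 pathway, H2, sex and transgene genes held out. A cluster was named when 3 markers reached 2-fold over the median cluster, exceeded the other cells and were in 10% of its cells, with 1 of them among its top 10 genes. Markers listed for more than 1 class did not count, and a cluster whose top 10 genes held more markers of another class stayed unnamed. Basal tumor-like clusters were those with 3 markers at 1.5-fold over the other basal-like clusters. This replaced, after seeing the data, a planned rule of 2-fold over the other cells, so that a difference from the study may come from rebuilt names.

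Counts were summed per gland and class (at least 10 cells) and tested with edgeR 4.0.16 in R 4.3.3 (TMM, filterByExpr, Benjamini-Hochberg adjustment over all genes, threshold 0.05). DESeq2 1.42.0 was an alternative tool. Each gland was 1 replicate. The fits were tested on simulated data first. Bulk genes had at least 10 counts over both libraries. Upstream windows of the 250 bases before the start came from RefSeq (GRCm38.p6) by symbol, for 7 of the 8 genes. Genes with a like pattern were the 5 with the highest Pearson r with the mean log2(CPM + 10) of the members, among genes with a mean of at least 20 CPM. Antibody counts were not used, and CITE-seq RNA entered no comparison. The 8 genes and all lists were chosen with earlier results of these data known. The values of 1 gene of the regulator list are not reported here.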

Additional observations from a re-analysis of the deposited data

Results flagged for a closer look

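CITE-seq RNA, counted beside antibody tags in 2 control and 2 double-mutant glands at P70, entered none of the comparisons above. The control glands were labelled 1 male and 1 female and both double-mutant glands female, so that sex was not balanced between genotypes. All 8 genes were higher in both double-mutant glands than in both control glands, as were 59.2% of 12038 genes with at least 20 UMIs. The median gene was higher in double-mutant glands by 0.39 on the log2(CPM + 10) scale, against log2 differences from 0.78 (Tap2) to 2.18 (B2m) among the 8. The lower double-mutant value was 2846 CPM for B2m (highest control 835), 986 for H2-D1 (383), 756 for H2-K1 (309), 96.2 for Tapbp (36.0), 137 for Psmb8 (52.6), 47.2 for Psmb9 (20.02), 30.9 for Tap2 (18.3) and 26.9 for Tap1 (8.01). These are whole libraries of all cells without TMM, and the part of their cell makeup was not tested.

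Of 64 groups of glands 12 held 1 gland far from the rest (Dixon's test, which chance passes in about 1 of 20 groups). In whole glands, on the scaled CPM, double-mutant P40 replicate 5 stood out for Tap1 (47.1, nearest other gland 22.9), Tap2 (58.7, nearest 23.8) and Tapbp (104.1, nearest 67.7), and in normal epithelial cells for H2-K1 (1185, nearest 627) and Tapbp (139.8, nearest 63.6). Double-mutant P40 replicate 2 stood out in whole glands for B2m (1761, nearest 893) and Psmb8 (81.7, nearest 40.9). Double-mutant P90 replicate 5, a sex-discordant library, stood out for Tapbp (131.4, nearest 79.8). Control P90 replicate 5 stood out for H2-D1 in whole glands (1044, nearest 568) and in normal epithelial cells (978, nearest 536). In normal epithelial cells control P40 replicate 4 was high for Psmb8 (26.1, nearest 13.3) and control P40 replicate 5 low for Psmb9 (1.69, nearest 5.33).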

How the results depend on the processing

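In whole glands 6 members were called, 0 with batch as a covariate and 3 to 7 with 1 gland left out. At P40 1 was called, 4 with DESeq2, 8 without TMM, 3 without the filter on low counts, 0 without the sex-discordant libraries, 0 with all deposited barcodes and 0 to 3 with 1 gland left out. At P90 1 was called, 2 with DESeq2, without TMM or without the filter, 0 without the sex-discordant libraries and 0 to 2 with 1 gland left out. Between the stages in control glands 0 were called, 1 with DESeq2 and 0 to 1 with 1 gland left out. In normal epithelial cells 2 were called, 4 with DESeq2, 5 without TMM, 1 with batch as a covariate, 0 in acinar-like cells alone and 2 to 3 with 1 gland left out. In immune cells 0 were called, 1 without TMM, and between tumor and normal epithelial cells 0, 7 without TMM and 2 with classes from marker UMIs. The cause was not tested.

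Tap1 at P40 lost its call without control P90 replicate 1, 2, 5 or 6, control P40 replicate 1, 3, 4, 5 or 6, double-mutant P40 replicate 1, 2, 5 or 6, or double-mutant P90 replicate 2, 3 or 6. Tapbp at P90 lost it without control P90 replicate 3 or 4 or double-mutant P90 replicate 5 or 6. The replicate block gave 4 calls at P40, 2 at P90 and 1 between the stages in control glands. Deviations of same-numbered glands correlated above 0.1 in 14 of 37 pairs (median 0.047), too few to pair them.

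These signs turned and passed no test: H2-D1 in whole glands with batch (−0.0084) and with 1 gland left out (−0.00043 to 0.22), H2-D1 at P90 without TMM (0.33), B2m at P90 with 1 gland left out (−0.10 to 0.22; −0.018 without control P90 replicate 2 and −0.099 without double-mutant P90 replicate 3), H2-D1 in normal epithelial cells without the filter (−0.0063), with the unnamed clusters (−0.022) and in acinar-like cells (−0.40), Psmb9 there with batch (−0.073), and Psmb6 without TMM (0.041). Of 1692 values of single genes (whole glands, stages, normal epithelial cells, class differences, bulk), 1515 kept direction and call, 123 lost the call, 43 gained it and 11 turned. Elsewhere signs turned in 16 of 63 values between tumor and normal cells (16 of 84 with 1 gland left out), 10 of 56 (23 of 208) between double-mutant stages, 8 of 36 (7 of 48) between tumor stages, 7 of 59 (0 of 143) in stromal and 5 of 59 (4 of 150) in immune cells. H2-K1 (−0.78) and H2-D1 turned lower in tumor cells with classes from marker UMIs, and both passed.

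Counts of all genes called also moved. In whole glands 2308 became 5583 without TMM and 309 with batch. At P40 155 became 731 with DESeq2, 2246 without TMM, 1313 without the filter, 998 with the replicate block and 15 to 558 with 1 gland left out. At P90 922 became 1504 with DESeq2, 1809 without the filter, 368 without the sex-discordant libraries, 1875 with the replicate block and 385 to 1854 with 1 gland left out. Between the stages 575 in control glands became 911, 382 and 1523 with DESeq2, without TMM and without the filter, 879 without the high-ribosomal library and 79 to 879 with 1 gland left out, 0 in double-mutant glands became 28 with DESeq2 and 627 without the filter, and 1 in the interaction became 8, 189, 3 and 0 with DESeq2, without the filter, and without the high-ribosomal or the sex-discordant libraries. In normal epithelial cells 106 became 268 with DESeq2 or the replicate block, 238 without TMM, 493 without the filter, 19 with batch, 390 with classes from marker UMIs, 187 with the unnamed clusters, 93 to 282 with 1 gland left out, and 9 and 160 in acinar-like and ductal-like cells alone. In stromal cells 46 became 89, 74 and 203 with DESeq2, without TMM and without the filter, 22 without the sex-discordant libraries, 78 with the replicate block, 19 at 25 cells a gland, 20 to 68 with 1 gland left out, 1 in endothelial-like cells, and 0 with batch or marker UMIs. In immune cells 140 became 485 without TMM, 394 without the filter, 87 without the sex-discordant libraries, 33 with batch, 20 with marker UMIs, 72 at 25 cells and 87 to 199 with 1 gland left out. Between tumor and normal epithelial cells 1434 became 3932 without TMM and 734 without basal tumor-like cells, between tumor stages 0 became 160 without the filter, and differences by class went from 33 to 19 without TMM and from 5 to 8 without the sex-discordant libraries. Without TMM the split into higher and lower went from 1515 and 793 to 5532 and 51 in whole glands, from 621 and 301 to 1169 and 62 at P90, from 87 and 19 to 233 and 5 in normal epithelial cells, from 32 and 14 to 69 and 5 in stromal, from 91 and 49 to 467 and 18 in immune cells, and from 687 and 747 to 3843 and 89 between tumor and normal cells. Counts were too low to test Tap1 in stromal and immune, Tap2 in immune and Psmb9 in stromal cells.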

Other observations

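Over the 13 named populations the genes whose pooled levels were most like the mean of the 8 members were Cdk11b (Pearson r 0.95), Psme2, a subunit of the proteasome activator (0.94), Psme2b (0.94), Cdc42 (0.94) and Tpm3 (0.93), among 5546 genes. Psme2 and Psme2b are near-identical, so that their counts could be split between them. Over the 26 glands, in normal epithelial cells, they were Gsn (0.94), Trim56 (0.93), Ip6k1 (0.92), the class I heavy chain H2-Q7 (0.91) and Sepw1 (0.91), among 3396 genes. The points share libraries, depth and cell makeup, so that these are descriptions. Among the 8 members themselves the correlation over the 26 glands in normal epithelial cells was highest for Tap2 and Tapbp (r 0.93) and Tap1 and Tapbp (0.92), H2-D1 and B2m had 0.91, and Tap1 and Psmb9, with the same upstream bases, had 0.56. Psmb9 had between 0 and 26 UMIs a gland in these cells, and the part of counting error in its correlations was not tested.

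Among unnamed clusters of at least 100 cells, B2m was highest in the cluster led by Duoxa2 (pooled level 1740 CPM in 137 cells, in 2 glands with at least 10 of them) and lowest in the cluster led by Lars2 (50.3 CPM in 1641 cells).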
